A study of Mus musculus with 9 samples.

Results

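The transcriptome described here is that of primary mouse cardiac fibroblasts carrying a control adenovirus that makes GFP, a fluorescent protein. It rests on 3 of the 9 libraries of the series, those labelled Ad-GFP replicates 1, 2 and 3, and only their TPM values were used (reads divided by length and scaled to the same total in every library). The other 6 libraries, from cells given a junctophilin-2 virus or a hairpin virus against it, entered only the estimate of read depth. The labels give the Ad-GFP cells as wildtype, strain C57BL/6N, male and adult, with heart as the tissue. Hearts were perfused and digested with enzymes, cardiomyocytes were settled out by gravity, and the cells that attached to plastic within minutes were grown on in serum. No sorting step is described, so any cell that survives and attaches could remain. Virus was added near confluence and the incubation lasted 72 h in total, with serum present for most of that time. All groups of the study received some adenovirus, and a culture without virus was not used here. The labels do not say whether the replicates were separate cultures or animals, so the spread given below may be technical.

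Cardiac fibroblasts build and remodel the collagen network of the heart. On stiff plastic with serum they take on features of myofibroblasts, cells that assemble contractile stress fibres of smooth muscle alpha-actin and deposit matrix under the control of TGF-beta, mechanical tension and the serum response factor. Cells taken from an adult heart by attachment can be accompanied by macrophages, endothelial cells, mural cells and mesothelium, each of which has its own marker genes.

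The table listed 56953 genes, and 32574 of them were at 0 in all 3 libraries. At or above 1 TPM in every library, the threshold used here for an expressed gene, were 12991 lines, which is 22.8% of the table. Among named protein-coding genes 10477 of 20019 were expressed, or 52.3%, and 6.16% reached 100 TPM in every library. These are the backgrounds against which each count of family members below is read. The median expressed named coding gene stood at 15.8 TPM. Only 92 such genes had a mean of at least 1000 TPM, and they held 23.6% of all TPM. Depth, which the TPM values do not give directly, was estimated at about 45.6, 40.7 and 42.4 M (mega) reads in replicates 1, 2 and 3, at which 3 reads on 1000 bases correspond to 0.0874 to 0.0977 TPM; these floors cover counting error only.

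The transcript at the top of the table was Acta2, smooth muscle alpha-actin, the textbook marker of the myofibroblast. It stood at 10102, 10155 and 10026 TPM in replicates 1, 2 and 3. S100a6, a small calcium-binding protein, followed at 9823, 9745 and 9984 TPM, and S100a4, long used as a fibroblast marker, at 8906, 9159 and 9174 TPM. The 3 ranges did not overlap, so the order of these genes was the same in every library. Eef1a1, which brings aminoacyl-tRNA to the ribosome, followed at 7378 TPM, and Vim, the intermediate filament protein of mesenchymal cells, at 7263 TPM. The cytochrome oxidase subunit mt-Co1 stood at 7036, 7125 and 7095 TPM. Other named coding genes at the head of the table were Rplp1 at 6685 TPM, Actb at 6127 TPM and Lgals1, the carbohydrate-binding galectin-1, at 6022 TPM. Sparc, a collagen-binding glycoprotein, followed at 5815 TPM and Tagln, the actin-bundling transgelin, at 4867 TPM. The 100 most abundant lines together held 30.6% ± 0.071 of the TPM (SD, n = 3). In bulk RNA such as this, fewer cells of a type and less RNA per cell cannot be told apart.

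**Figure D1:**
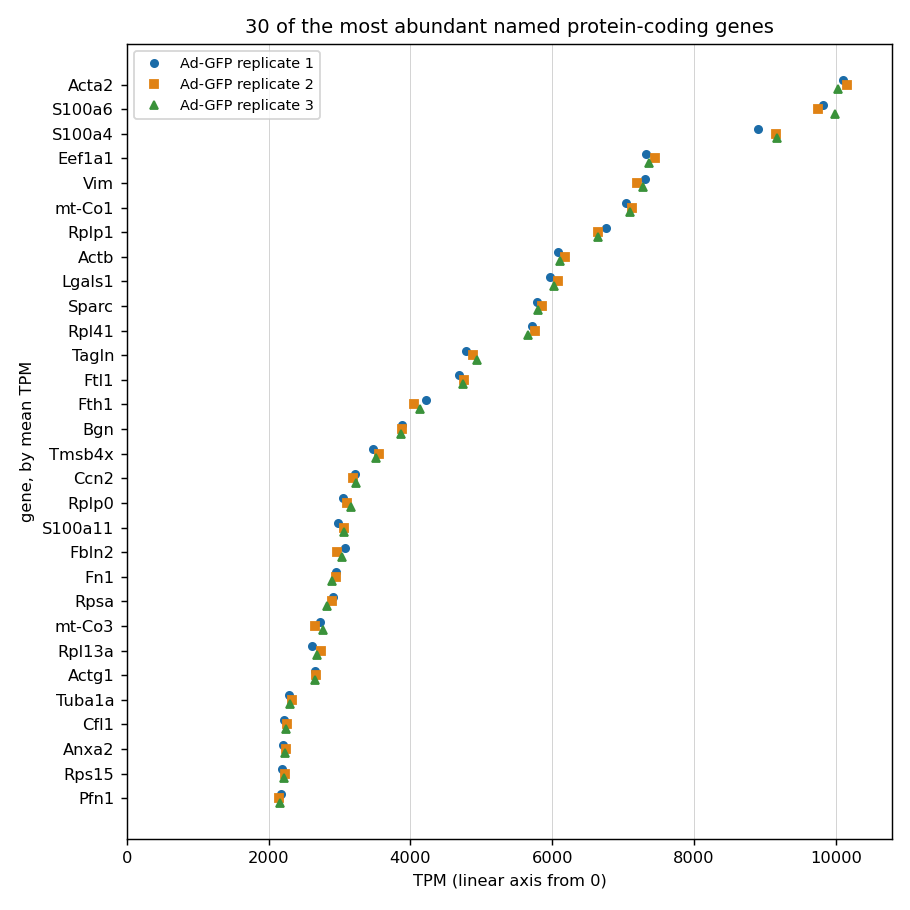
TPM (linear axis from 0) of 30 of the most abundant named protein-coding genes, in order of mean, with 1 symbol for each Ad-GFP replicate. Acta2, S100a6 and S100a4 stand apart from the genes below them, and the 3 libraries lie close together for each gene.

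TPM divides reads by length. Shares of reads were estimated as TPM times the deposited effective length, the same for all 3 libraries, because no counts were used. By share of reads, the order at the top moved to long matrix messages. Fn1, fibronectin, took 1.70% of the reads and Acta2 1.11%. Fbln2, Sparc, Thbs1 and Col1a1 took 0.940%, 0.848%, 0.813% and 0.773%. All other levels in the text are TPM, so that genes of different length can be set side by side.

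The promoters of S100a4 and Vim, both at the head of the table, are shown because they carry the letters of a TATA box, the element that binds the TATA-binding protein close to the start of transcription. RefSeq's GRCm38 windows for them are on chromosome 3 (chr3:90603710-90603769, plus strand) and chromosome 2 (chr2:13574251-13574310, plus strand). Each run is the 60 bases before the annotated start, with the motif in capitals.
S100a4: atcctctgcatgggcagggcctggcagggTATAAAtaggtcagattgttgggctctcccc
Vim: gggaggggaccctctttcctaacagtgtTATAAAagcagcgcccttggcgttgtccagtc
The motif began 31 bases before the start in S100a4 and 32 bases before it in Vim. Only genes with a single RefSeq window were examined, which are 55 of the 92 named coding genes with a mean of at least 1000 TPM. TATAAA on either strand was found anywhere in the 300-base window (250 bases before the start and 50 after) in 20% of these 55. The share was 9.49% of 748 genes at 100 to 1000 TPM, 6.43% of 3299 at 10 to 100 TPM, 6.41% of 2701 at 1 to 10 TPM and 18.02% of 5378 under 1 TPM, against 14.8% of 22862 genes with a single RefSeq window. Within the 40 to 20 bases before the start, on the forward strand, TATAAA was found in 7.27% of the 55, which are 4 genes: S100a4, Vim, Anxa1 and Ppia. There the share was 2.14% of genes at 100 to 1000 TPM, 0.758% at 10 to 100 TPM, 1.48% at 1 to 10 TPM and 5.41% under 1 TPM. Over all 22862 genes it was 2.32%. The share was thus high at both ends of the range of levels and low in its middle, and the uppermost bin held few genes. Median GC content of the windows was 52.3% under 1 TPM and 60.3% to 61.7% in the other bins. Its part in these shares was not tested. A match is a string of letters, and binding was not measured.

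Among contractile and cytoskeletal messages the smooth muscle and nonmuscle forms stood above the striated muscle forms. Of the 6 actins all were expressed, and 3 of them, Acta2, Actb and Actg1, held 99.5% of the actin TPM. Actg1, cytoplasmic gamma-actin, stood at 2661, 2671 and 2651 TPM, and smooth muscle Actg2 at 85.1, 88.5 and 85.3 TPM. The sarcomeric actins were far lower: Acta1 of skeletal muscle ranged from 7.67 to 9.63 TPM and Actc1 of heart muscle from 2.76 to 3.29 TPM. No neighbouring actins overlapped in range. All 28 members of the myofibroblast and smooth muscle list were expressed, 17 of them at 100 TPM or more in every library. After Tagln came Tagln2 at 1055 TPM, the actin crosslinker Flna at 862 TPM, alpha-actinin Actn1 at 848 TPM, Csrp1 at 755 TPM and Cnn2 at 739 TPM.

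Tropomyosins, which lie along actin filaments, were all abundant. Tpm2 stood at 1481, 1506 and 1500 TPM, Tpm1 at 1340, 1355 and 1358 TPM, and Tpm4 and Tpm3 at means of 1093 and 343 TPM. With a matched copy, described below, Tpm4 came to 1515 TPM, and its range overlapped with that of Tpm2. Myosin heavy chains were carried by Myh9, the nonmuscle form, which held 93.2% of the TPM of the family at 408, 405 and 406 TPM. Myh10 stood at 22.2 TPM and smooth muscle Myh11 at 5.60 TPM. Cardiac Myh6 was at 0.352 TPM and Myh7 at 0.00667 TPM, the latter below the level of 3 reads. Among light chains Myl6, Myl12a and Myl9 stood at 1857, 1782 and 1647 TPM, while with copies added Myl12a at 4375 TPM was above Myl6 at 3710 TPM. Vim took 91.0% of the TPM of 64 intermediate filament and lamin genes, of which only 10 were expressed.

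Small calcium-binding and membrane-associated proteins also stood high. The S100 family held 2.34% ± 0.025 of the TPM, with 8 of its 16 listed members expressed, a share of 50% beside 52.3% of all named coding genes. S100a11 stood at 3036 TPM, S100a10 at 848 TPM and S100a16 at 367 TPM, and no neighbours among the 8 expressed members overlapped. With copies added S100a11 came to 5988 TPM. Of 12 annexins 9 were expressed, led by Anxa2 at 2228 TPM, Anxa1 at 1850 TPM and Anxa5 at 680 TPM. Lgals1 held 92.8% of the galectin TPM, with Lgals9 and Lgals3 at 225 and 216 TPM. The iron storage chains Ftl1 and Fth1 stood at 4725 and 4139 TPM, and Ftl1 at 7766 TPM with copies added. The lysosomal proteases Ctsd, Ctsb and Ctsl stood at 1638, 820 and 735 TPM.

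Matrix genes were led by glycoproteins rather than by collagens. The list of 37 matricellular and adhesive glycoproteins held 1.85% ± 0.0041 of the TPM and had 24 expressed members. Below Sparc, Ccn2, the connective tissue growth factor that responds to TGF-beta and tension, stood at 3215, 3187 and 3227 TPM. Fn1 stood at 2956, 2955 and 2893 TPM and Thbs1, thrombospondin-1, at 2115, 2098 and 2086 TPM. Igfbp7 followed at 1288 TPM and Ccn5 at 812 TPM. No neighbours among its 6 highest members overlapped. Periostin, encoded by Postn and often used to mark activated cardiac fibroblasts, stood at 88.6, 89.5 and 89.1 TPM.

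Collagens held 0.743% ± 0.0075 of the TPM, with 23 of 44 members expressed, a share of 52.3% equal to that of all named coding genes. Col1a1 and Col1a2, the chains of fibrillar type I collagen, stood at 1581, 1591 and 1539 TPM and at 1353, 1340 and 1331 TPM. The ratio of the messages, 1.17, is lower than the 2 to 1 of the protein chains in the type I trimer. These are unlike measures, since TPM does not give protein amounts. Col4a1, a basement membrane chain, stood at 1120, 1095 and 1086 TPM and overlapped with Col5a2 at 1089, 1099 and 1087 TPM. Col4a2 stood at 764 TPM and Col3a1, the second fibrillar collagen of the heart, at 700 TPM. Type VI chains were lower, with Col6a1 at 96.0 TPM. The collagen-processing list had 25 of 27 members expressed, led by the collagen chaperone Serpinh1 at 1673 TPM, Ppib at 639 TPM, Pcolce at 544 TPM and the crosslinking oxidases Loxl2, Loxl1 and Lox at 455, 424 and 336 TPM.

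**Figure D2:**
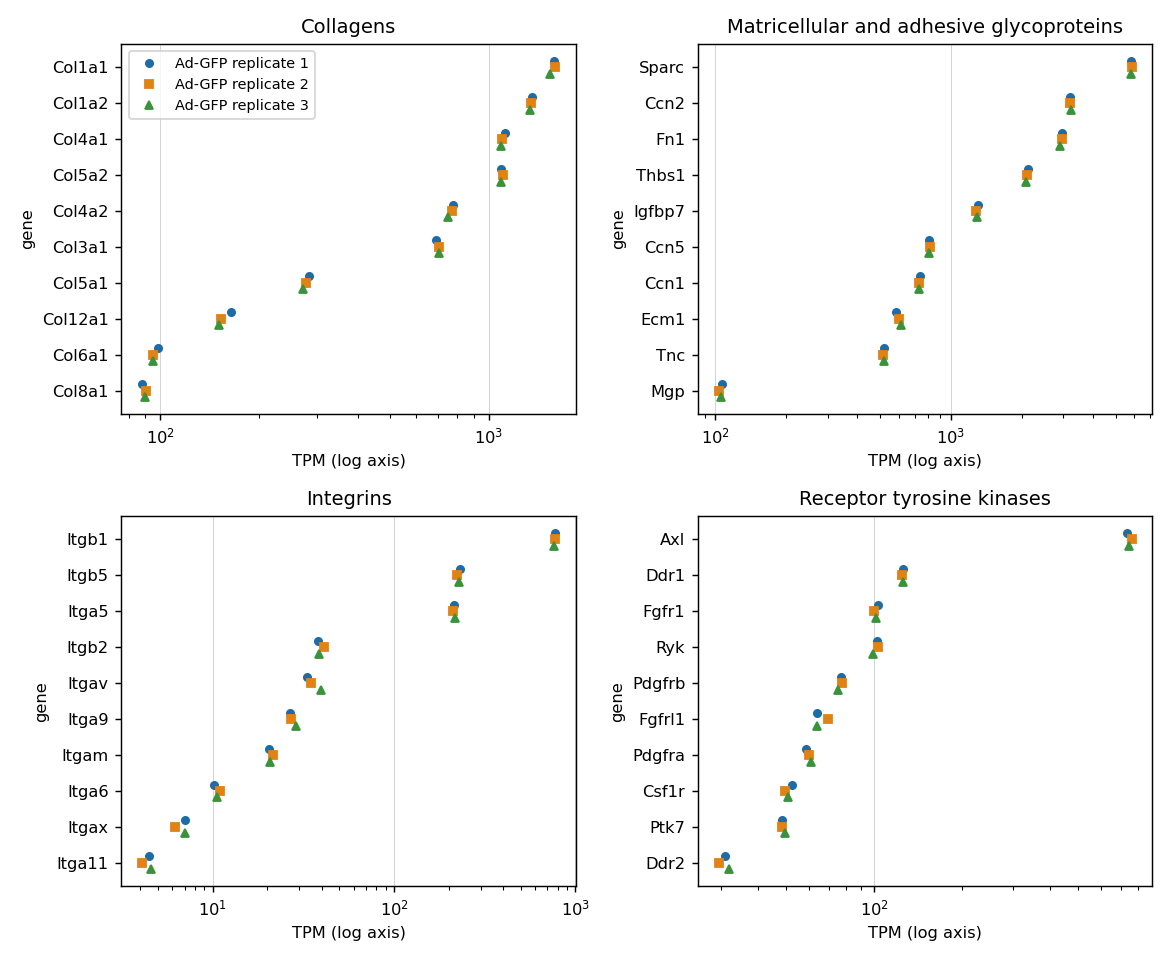
TPM (log axis) of the 10 most abundant collagens, matricellular glycoproteins, integrins and receptor tyrosine kinases, with 1 symbol for each Ad-GFP replicate. Sparc leads the glycoproteins, Col1a1 the collagens, Itgb1 the integrins and Axl the receptor kinases, and Col4a1 and Col5a2 overlap.

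Other matrix classes each had a dominant member. Fbln2, fibulin-2, held 66.8% of the elastic fibre list at 3084, 2971 and 3032 TPM, above Efemp2 at 377 TPM, Mfap5 at 353 TPM and Fbn1 at 295 TPM. Eln, elastin itself, was at 16.4 TPM. Bgn, the small leucine-rich proteoglycan biglycan, held 74.7% of the proteoglycan list at 3880, 3884 and 3866 TPM. Its relative Dcn, decorin, stood at 154 TPM and Prelp at 229 TPM. Nid1 led the basement membrane list at 524 TPM, above Hspg2 at 258 TPM and Lamb1 at 217 TPM.

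The metalloprotease inhibitors of the TIMP family were above the proteases they act on. Timp1 and Timp2 stood at 2016 and 1112 TPM, whereas the 23 matrix metalloprotease genes summed to 738 ± 8.1 TPM (SD, n = 3). Of that sum 58.1% was Mmp14, the membrane-bound collagenase, at 425, 438 and 425 TPM. The next was Mmp12, macrophage elastase, at 72.3 TPM, then Mmp3 at 58.5 TPM and Mmp2 at 54.3 TPM. Levels of messages do not give protein amounts or activity.

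Among cell-surface receptors for matrix, Itgb1, the beta chain shared by most collagen and fibronectin integrins, stood at 774, 770 and 763 TPM and held 56.1% of the integrin TPM. Itgb5 and Itga5, the fibronectin receptor's alpha chain, followed at 227 and 214 TPM, with ranges that did not overlap. A copy matched to Itgb5 held a further 333 TPM. All other alpha chains were below 40 TPM, and 16 of 26 integrins were expressed. Itgb2, the beta chain of leukocyte integrins, stood at 37.9, 41.2 and 38.4 TPM and overlapped with Itgav at 33.3, 35.0 and 39.8 TPM. Itgam, a leukocyte alpha chain, was at 20.9 TPM.

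Receptor tyrosine kinases were led by Axl, which binds Gas6, at 734, 763 and 745 TPM, 5.97 times the level of the collagen receptor Ddr1. Ddr1 stood at 125 TPM, Fgfr1 at 102 TPM and Ryk, a Wnt co-receptor, at 102 TPM; the last 2 overlapped. The receptors for platelet-derived growth factor, Pdgfrb and Pdgfra, stood at 76.5 and 59.8 TPM without overlap. Of 44 receptor tyrosine kinases 27 were expressed.

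Receptors of the TGF-beta family were headed by the co-receptor Eng, endoglin, at 278, 278 and 277 TPM, and by the type I receptor Acvrl1 at 106 TPM. Tgfbr2, the type II receptor for TGF-beta, stood at 41.6, 41.2 and 40.7 TPM. Its partner Tgfbr1 was at 2.19 TPM. Cytokine receptors were led by Tnfrsf12a, the receptor for TWEAK, at 477, 472 and 466 TPM. The growth hormone receptor Ghr stood at 141 TPM and Ltbr at 136 TPM. The ligand of Tnfrsf12a, Tnfsf12, stood at 49.6 TPM.

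Of 80 listed hormone and lipid G protein-coupled receptors 28 were expressed, or 35% beside 52.3% of all named coding genes. The 80 genes summed to 606 ± 4.4 TPM. F2r, the thrombin receptor, stood at 110, 111 and 111 TPM, Gpr176 at 89.0 TPM and the zinc-sensing Gpr39 at 83.8 TPM. Agtr1a, the type 1 angiotensin receptor, was at 0.240 TPM. Nuclear receptors were led by Nr2f6 at 71.4 TPM and Nr1h2 at 61.8 TPM, and none of the 44 reached 100 TPM in every library.

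Csf1, the growth factor on which macrophages depend, stood at 1458, 1428 and 1445 TPM and held 70.4% of the interleukin and colony-stimulating factor list, in which 17 of 60 genes were expressed. Mif followed at 415 TPM, or 1025 TPM with its copies, and Il6 at 37.9 TPM. The receptor for Csf1, Csf1r, was at 50.8 TPM. Chemokines were led by the monocyte attractants Ccl2, at 330, 334 and 316 TPM, and Ccl7, at 182 TPM; 21 of 41 were expressed. Ccl6 stood at 105 TPM, Pf4 at 83.5 TPM and Cxcl12 at 61.7 TPM.

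Growth factor and antagonist genes showed a similar dominance of few members. Fstl1, a follistatin-like glycoprotein, stood at 1027, 1031 and 1024 TPM, Gdf6, a BMP ligand, at 230 TPM and Nbl1 at 190 TPM. Tgfb1 was at 69.4 TPM, Tgfb3 at 48.8 TPM and Tgfb2 at 17.4 TPM. Manf, a stress-induced factor, stood at 425, 427 and 432 TPM. The vascular growth factors Vegfa and Vegfd stood at 76.2 and 58.9 TPM. Adm, the vasodilator adrenomedullin, stood at 321 TPM and the Wnt antagonists Frzb and Sfrp1 at 154 and 69.4 TPM. Igfbp2 was at 282 TPM and Igf1 at 46.2 TPM. Fibroblast and epidermal growth factors were sparse, with 7 of 33 expressed and Hbegf highest at 37.6 TPM.

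Among transcription factors, those known from heart development were read first. Tcf21, which marks the epicardial lineage of heart fibroblasts, stood at 114, 116 and 109 TPM. Tbx20 stood at 68.1, 74.5 and 68.8 TPM, Gata4 at 42.5, 40.5 and 41.8 TPM and Gata6 at 18.5 TPM. Tbx5 was at 0.229 TPM and Tbx18 at 8.85 TPM. Of 39 Hox genes, which give trunk and limb fibroblasts their positional code, 6 were expressed and the highest, Hoxb2, averaged 3.98 TPM. The serum response factor Srf was at 72.0 TPM and Yap1, a sensor of tension, at 62.0 TPM. Id3, a target of BMP signalling, stood at 255 TPM and Jund at 178 TPM.

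Among channels, the stretch-gated Piezo1 stood at 102, 104 and 98.7 TPM, and the store-operated calcium entry genes Stim1 and Orai1 at 43.9 and 30.9 TPM. Jph2, the junctophilin whose level the other viruses of the study were built to change, stood at 132, 128 and 128 TPM and overlapped with the calcium pump Atp2a2 at 132, 130 and 128 TPM. With copies added Atp2a2 came to 187 TPM. Jph1 was at 0.454 TPM and the ryanodine receptor Ryr2 at 0.0847 TPM. Of 93 potassium channel genes 11 were expressed, the highest being Kcnab1 at 15.6 to 16.3 TPM. The connexin Gja1 stood at 13.2 TPM. Cav1 and Cavin1, which form caveolae, stood at 278 and 358 TPM, and Cdh2, N-cadherin, at 59.0 TPM.

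The state of the cells was read from fixed lists. Of 24 proliferation genes 21 were expressed, with Cdk1 at 109, 115 and 115 TPM, Tyms at 82.5 TPM, Pcna at 78.6 TPM, and Birc5 at 51.6 TPM. With a copy added Pcna came to 117 TPM, and its range overlapped with that of Cdk1. The cell-cycle inhibitor Cdkn1a stood at 572, 575 and 569 TPM beside Cdk4 at 466 TPM and Ccnd1 at 241 TPM. Interferon-stimulated genes had 20 of 30 expressed, led by Ifitm3 at 862 TPM and Ifi27 at 239 TPM, while Isg15 stood at 35.6 TPM. Whether the virus set these levels was not tested, since no uninfected culture was used here. Of 30 antioxidant genes 29 were expressed, led by Prdx5 at 1069 TPM. The male label was met: Xist was at 0 in every library and Eif2s3y stood at 24.8, 12.9 and 18.6 TPM.

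Several families of energy metabolism were carried by a single member. Aldoa stood at 1687 TPM against 2.36 TPM for Aldoc, and Ldha at 1273 TPM against 8.61 TPM for the heart form Ldhb. Ckb, brain-type creatine kinase, stood at 161 TPM and muscle Ckm at 0.053 TPM. Cox6a1 stood at 752 TPM against 1.39 TPM for the muscle form Cox6a2, and Slc2a1 at 39.3 TPM against 0.119 TPM for the insulin-sensitive glucose transporter Slc2a4. In the adenine nucleotide translocase pair Slc25a4, the heart and muscle form, stood at 630 TPM and Slc25a5 at 485 TPM, without overlap. With copies added Slc25a5 came to 608 TPM. Mitochondrially encoded genes held 1.92% ± 0.017 of the TPM, or 2.60% with copies added, and 0.691% by share of reads.

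Most markers of the labelled cell type were present. Of 29 resident cardiac fibroblast markers 23 were expressed, or 79.3% beside 52.3% of all named coding genes, and 14 reached 100 TPM in every library. The first markers of the list were all expressed: Pdgfra stood between 58.7 and 60.7 TPM, and Tcf21, Col1a1 and Col1a2 as given above. Thy1 was at 149 TPM and Ddr2 at 30.7 TPM. Fap at 0.301 TPM was below the threshold, and Lum at 1.13 TPM was below it in replicate 2. Meox1 and Pi16 were also below it, at 0.901 and 0.0897 TPM. Wif1 and Cilp, at 0.0403 and 0.007 TPM, were on average below the level of 3 reads.

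Traces of other cells were led by macrophages. Of 20 macrophage and monocyte markers 17 were expressed, or 85% beside 52.3% of all named coding genes, and 8 reached 100 TPM in every library. The 20 markers summed to 3842 ± 23 TPM, or 0.384% ± 0.0023 of the total. Lyz2, lysozyme, stood at 1715, 1744 and 1731 TPM, and the complement genes C1qa, C1qc and C1qb at 450, 403 and 307 TPM. Tyrobp was at 225 TPM and Fcer1g at 199 TPM. Of the defining markers Cd68 stood at 148 TPM, Csf1r at 50.8 TPM and Adgre1 at 28.6 TPM, whereas Ptprc, the pan-leukocyte phosphatase CD45, was at 0.571, 0.669 and 0.537 TPM. The level was alike in the 3 libraries, and no share of cells can be read from it. Part of the chemokine, complement, leukocyte integrin and Mmp12 levels above is from genes that macrophages express; how much was not tested.

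Endothelial markers were led by Eng, which fibroblasts also express. Of 20 markers 13 were expressed, or 65% beside 52.3% of all named coding genes. The 20 markers summed to 368.5 ± 0.68 TPM, of which 75.3% was Eng. Emcn, Cd36 and Plvap followed at 26.1, 18.8 and 12.8 TPM. Of the defining markers Pecam1 stood at 3.52 TPM, Cdh5 at 5.30 TPM, Flt1 at 1.06 TPM and Kdr at 0.131 TPM. Cardiomyocyte markers summed to 76.2 ± 1.9 TPM with 9 of 24 expressed, or 37.5%. Tnnt2 stood at 27.2, 26.6 and 28.2 TPM, Myl4 at 17.0, 15.01 and 15.95 TPM and Nppa at 13.2 TPM, whereas Tnni3 was at 0.759 TPM and Myh6 at 0.352 TPM. Tnnc1, Des, Actc1 and Myl7 were low but expressed, at 3.98, 3.04, 2.98 and 1.68 TPM.

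Of 17 mural cell markers 9 were expressed, or 52.9%, near the 52.3% of all named coding genes. Cnn1 stood at 101 TPM, Pdgfrb at 76.5 TPM and Smtn at 45.6 TPM, all of which contractile fibroblasts can express. Mcam and Lmod1 followed at 34.6 and 24.3 TPM, and Ndufa4l2, Myh11, Notch3 and Des were expressed at lower levels. Which cells these messages came from was not tested. The defining pericyte markers Rgs5, Kcnj8 and Abcc9 were at or below the level of 3 reads in mean, with Kcnj8 at 0 in every library, and Cspg4 was at 0.198 TPM. Epicardial and mesothelial markers had 7 of 14 expressed, or 50%, with Aldh1a2 at 62.6 TPM and Upk3b at 9.51 TPM, and Wt1 at 0.373 TPM. Pdpn, listed for lymphatic endothelium, stood at 275 TPM, while Prox1 and Lyve1 were at 0.152 and 0.114 TPM. In the Schwann and neural list Tubb3 stood at 477 TPM and Pmp22 at 298 TPM, while Sox10 was on average below the level of 3 reads. Of 13 lymphocyte markers Trac was expressed, at 2.58, 1.83 and 2.72 TPM, while Cd4 was at 0.692 TPM and Cd3e, Cd3d and Cd8a were at 0. No granulocyte, mast cell or epithelial marker was expressed, and Hba-a1, Hbb-bs and Hbb-bt were at 0.

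**Figure D3:**
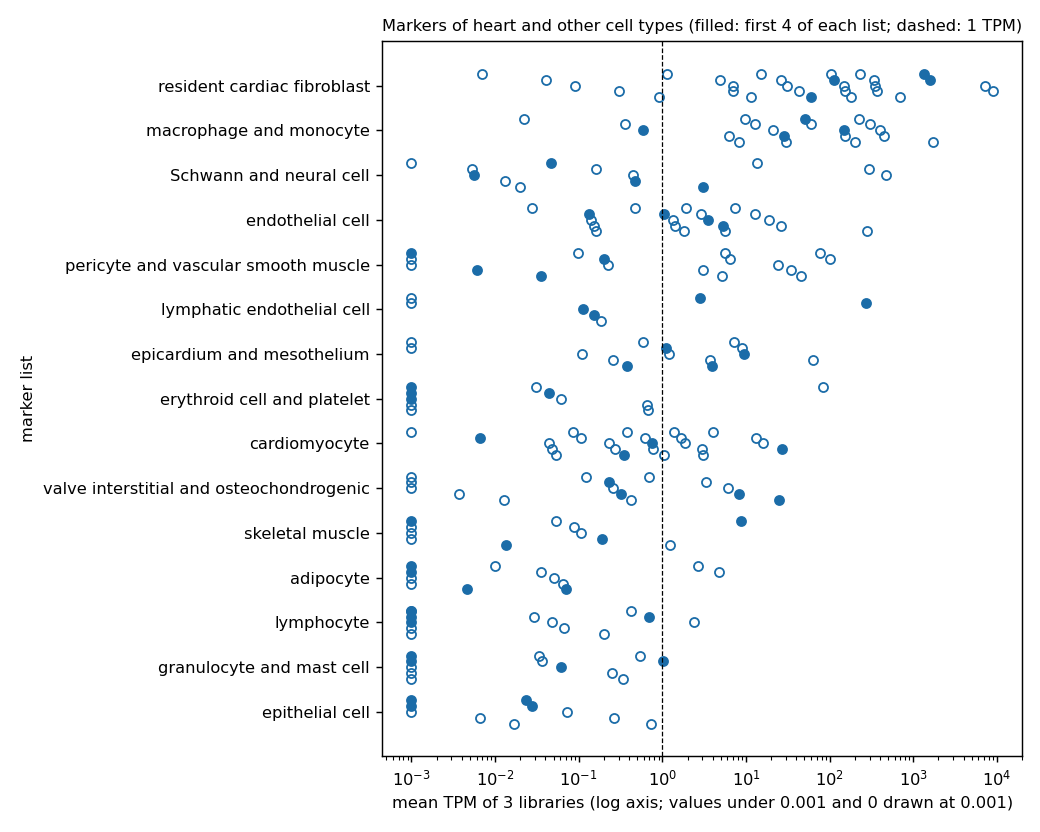
Mean TPM of the 3 libraries (log axis, values under 0.001 drawn at 0.001) for each marker in 15 cell type lists, with the first 4 markers of a list filled and 1 TPM dashed. Fibroblast and macrophage markers lie mostly above 1 TPM, while the filled erythroid and epithelial points lie near the left edge.

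Part of the abundance lay on lines that match other genes closely in sequence, called copies here. Pseudogene lines of the GENCODE M21 annotation held 22.3% ± 0.055 of the TPM, and 12 of the 40 most abundant lines were pseudogenes. Copies were matched to named coding genes by sequence alignment (at least 90% identity over at least 80% of the copy). Among genes that matched about equally well, the one with the highest TPM was taken. Either strand was searched, and overlap with the gene's own locus was not checked. A matched line may thus be an antisense or overlapping one. Of 1542 pseudogene or numbered lines with a mean of at least 5 TPM, 928 had such a match, and they held 17.98% of the TPM. Each line's reads are divided by its own effective length, so the same reads give more TPM on a shorter copy. The pseudogene line Gm14303, for example, had 4654 TPM on an effective length of 49.4 bases. Every sum of TPM with copies depends on these lengths, and shares of reads with copies added were not computed.

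An example is the pair of Gm4149 and Rpl37a, a protein of the 60S ribosome. It is shown because copy and gene differ by a single base over their aligned stretch. They lie at chr13:75644896-75645171 and chr1:72711290-72713813 of GRCm38, both on the plus strand. They differed at 1 of 276 aligned bases, T31C from gene to copy, counting from 1 at the 5′ end of the window of 61 bases shown, with that base in capitals.
Rpl37a: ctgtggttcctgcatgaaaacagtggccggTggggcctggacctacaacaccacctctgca
Gm4149: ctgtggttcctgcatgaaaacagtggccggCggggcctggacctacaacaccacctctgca
Gm4149 had a mean of 2659 TPM and Rpl37a 264 TPM, so the copy was listed at 10.1 times the level of the gene. A read that lies within the aligned stretch and misses the differing base cannot tell the lines apart, so their separate levels are uncertain. Sequence outside that stretch was not compared.

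The 87 listed cytosolic ribosomal protein genes held 6.52% ± 0.0099 of the TPM, and 283 matched copies of 56 of them held a further 10.3% ± 0.020, which gives 16.9% ± 0.028 with both. For 41 of the 56 the copies summed to more than the gene, and for 19 to more than 10 times as much. Rpl12 stood at 27.0 TPM with 3146 TPM on its copies, and Rps27 at 24.1 TPM with 3083 TPM. Across 78 expressed genes of the class, the coefficient of variation (CV, SD over mean) between genes was 140% for the gene lines and 70.6% with the copies added. The levels of the gene lines alone ran from 37.5 TPM at the 10th percentile to 2055 TPM at the 90th.

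**Figure D4:**
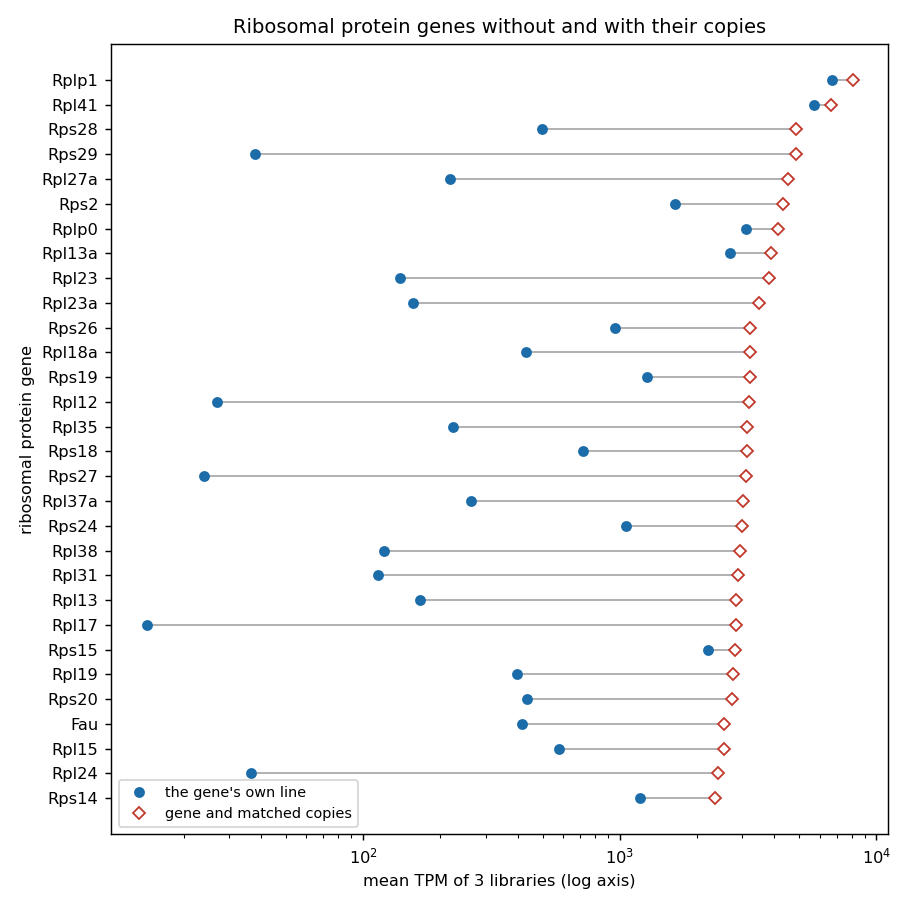
Mean TPM of the 3 libraries (log axis) of ribosomal protein genes that have matched copies, for the 30 with the highest sum: filled circles give the gene's own line and open diamonds the gene with its copies. Rpl12 and Rps27 lie far to the left of their sums, while Rplp1 and Rpl41 lie close to theirs.

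Outside the ribosome, Actg1 had 2661 TPM and its 6 copies 4133 TPM, so with copies it stood at 6794 TPM, above Actb. Myl12a, Ppia and Tmsb10 had 40.7%, 31.0% and 37.3% of their sums on the gene line. Mitochondrial mt-Co2 stood at 1787 TPM and its copies at 2674 TPM. With copies added, Eef1a1 passed Acta2 in mean for the first place, at 10217 against 10094 TPM. The lowest value of Eef1a1 and the highest of Acta2 were both about 10155 TPM. Acta2 itself had no matched copy.

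Gene length and base composition moved with the levels. Among named coding genes sorted by transcript GC content, 19.8% of the lowest of 10 equal bins (up to 40.6% GC) were expressed, and the share reached 61.6% in bin 9. Genes at 100 TPM or more made up 1.20% of the lowest bin and 9.09% of bin 9. Over 10 bins of gene length, 14.3% of the shortest but 2.35% of the longest reached 100 TPM. The share expressed ran otherwise, from 37.7% of the shortest to 62.8% in bin 9 and 53.1% of the longest. The deposited effective length, by which reads are divided, also followed GC: its median ratio to gene length was 0.487 in the lowest GC bin and 1.08 in the highest, where 82.2% of expressed genes had an effective length above the gene length. Of the proliferation list Mki67, Bub1 and Ccne2 were under the threshold, at 0.251, 0.887 and 0.526 TPM, and the median GC of these 3 was 41.0% against 51.1% in the 21 expressed. The 3 macrophage markers under it, Ptprc, Cd163 and Ccr2, had a median GC of 41.4% against 52.9% in the other 17. The gap was smaller in the fibroblast markers (48.98% in 6 against 51.9% in 23) and the collagens (53.95% in 21 against 56.4% in 23). The part of base composition in these low values was not tested.

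**Figure D5:**
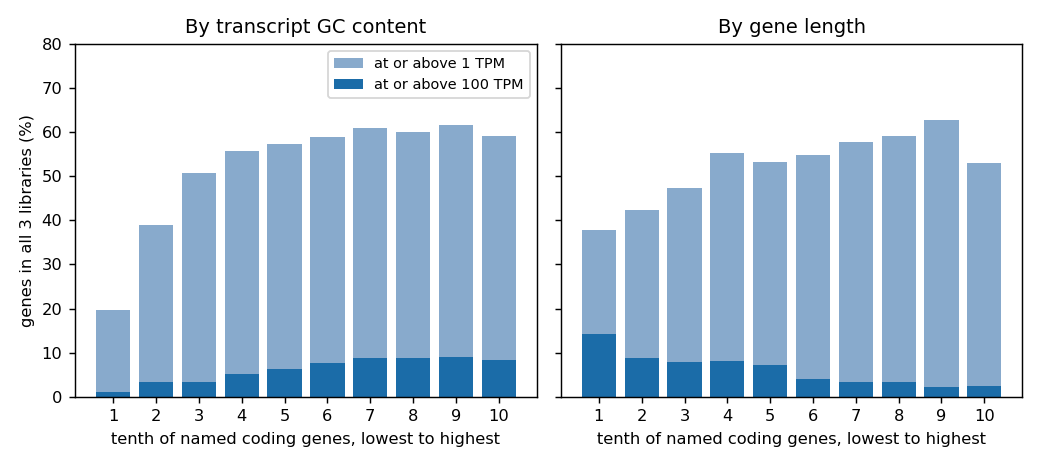
Percent of named protein-coding genes at or above 1 TPM (pale bars) and 100 TPM (dark bars) in all 3 libraries, in 10 equal bins of transcript GC content (left) and gene length (right). The lowest GC bin has 19.8% expressed, and the dark bars fall from 14.3% in the shortest genes to 2.35% in the longest.

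The 3 libraries lay close together. Over genes with a mean of at least 5 TPM the median CV was 4.30% (n = 3). It fell with the level in named coding genes, from 12.3% at 1 to 5 TPM through 3.44% at 20 to 100 TPM to 0.998% at 1000 TPM or more, where Rpl32 had 2157, 2156 and 2156 TPM. No pair of libraries agreed within counting noise at the approximate depths above: the squared difference between 2 libraries over its counting variance had a median of 1.74 to 1.90, against 0.455 for counting noise alone. The genes that varied most were small or noncoding RNAs. Rny3, Mir3063 and Mir27a were each at 0 in 2 libraries, with effective lengths of 2.99, 3.04 and 1.12 bases. The named coding gene that varied most was Pcdhgc4, at 9.30, 12.9 and 2.19 TPM. Rn18s-rs5, an 18S ribosomal RNA line, stood at 1675, 747 and 710 TPM, and Mir6236 at 556, 154 and 164 TPM. Lars2, a mitochondrial leucyl-tRNA synthetase, stood at 38.7, 17.9 and 19.1 TPM. All 3 were higher in replicate 1, by 2.30, 3.50 and 2.09 times the mean of the other libraries, whereas the mitochondrial ribosomal RNAs mt-Rnr1 and mt-Rnr2 differed by factors of 1.06 and 0.987.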

How the data were processed

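Polyadenylated RNA was sequenced from stranded libraries, per the labels' protocols. DRAGEN, Salmon and DESeq2 appear as tools, and GRCm39 as build, per the submitters' processing notes; what each did is not stated there. The authors deposited a TPM value per gene beside its length and its effective length, and no counts were used. TPM keeps no depth, so depth was estimated from the steps of TPM times effective length: 95.8% of low values in replicate 3 fell within 0.1 of a whole read, but 55.3% and 57.4% in replicates 1 and 2. The effective length therefore belongs to replicate 3, and the other depths are approximate. The estimate was also run on simulated reads made with the deposited effective length. That run cannot speak for replicates 1 and 2, which this length fits less well. The other 6 libraries entered only this depth step, and every level comes from the 3 Ad-GFP columns; no groups were compared and no test was run. Levels are means with SD over 3 libraries, and neighbours differ only where ranges do not overlap. Biotypes came from GENCODE M21 (91.4% of lines matched by gene ID), promoters from RefSeq (12181 named coding genes matched). GENCODE M21 and RefSeq are on GRCm38, so coordinates are for those sequences. Copies were matched with blastn 2.17.0. Analyses used Python 3.11.15 and pandas 2.3.3. A symbol on several lines took the highest.

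The members and lists were chosen with earlier results of these data known. Genes were named from the 40 most abundant lines (not all of which are printed), up to 6 leading members of a list (any member of lists of up to 12), the first 4 markers of each cell type and the 12 genes with the largest CV. Other genes named were chosen after their values were seen, such as Postn, Eln, Agtr1a, Tgfbr1, Tgfb2, Jph1, Ryr2, Tbx5, Mki67, Bub1, Ccne2, Cd163, Ccr2, Fap, Lum, Lars2 and Rn18s-rs5. Lines whose symbols only resembled a family were dropped from its list by name. Alternatives covered thresholds, scaling, length, repeated symbols, copies and leaving out each replicate. Some items, including a gene left out of the plot of the most abundant genes, are not reported here.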

Additional observations from a re-analysis of the deposited data

How the results depend on the processing

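With thresholds of 0.5 or 2 TPM, a mean of 1 TPM, named symbols only or any replicate left out, the count of expressed lines stayed within 1.5 times 12991. The share of the 100 most abundant lines (30.6%) was 30.4% without mitochondrially encoded genes, 29.1% by reads and 36.3% with copies added to their gene. The ribosomal protein share (6.52%) was 6.65%, 2.62% and 16.9% under the same settings. The macrophage marker share (0.384%) was 0.392% without mitochondrial genes and 0.337% by reads. Acta2 ranked 1 as deposited, 3 by reads and 2 with copies added. The median CV (4.30%) was 5.86% from 1 TPM, 3.10% from 20 TPM, 4.31% with median-of-ratios factors, 4.21% at effective lengths of at least 200 bases, and 3.36% to 3.49% with a replicate left out. The share with TATAAA among the 55 examined genes at 1000 TPM or more went from 20% to 7.27%. Both position and strand were restricted for the second value, so their parts are not separated. For 7 other lists, 20 of 34 values moved by less than 1 SD, not counting those without a replicate, whose mean of 2 can hardly move further. By reads, collagens went from 0.743% to 3.27% and S100 genes went from 2.34% to 0.607%. Adding copies and the limit on effective length were chosen after seeing the data. No paired analysis was possible because only 1 group was described. Depth limits genes near 0.1 TPM, and 5 of the 40 most abundant lines had an effective length under 200 bases. Protein sequences were not used here.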

Other observations

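Bc1, a short noncoding RNA best known from neurons, stood among the 10 highest lines, at 5763, 6987 and 6129 TPM, on an effective length of 43.5 bases. Its values correspond to about 8608, 9335 and 8557 reads in replicates 1, 2 and 3, against about 503138, 452382 and 466708 reads for Acta2. Few reads were thus divided by a short length. Its range overlapped with that of Actb.

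Other lists not described above had clear leading members. Gas5, the host of several small nucleolar RNAs, led 46 long noncoding RNAs at 415, 443 and 414 TPM, and Malat1 was at 2.48, 1.39 and 1.24 TPM. Imprinted genes were led by Gnas at 1067 TPM, above Dcn and Ndn, while Igf2 stood at 0.696 TPM and H19 at 1.18 TPM. The histone list had 32 of 102 genes expressed, led by H2aj and H3f3a at 303 and 270 TPM; with copies added H3f3a led at 600.1 TPM. Tetraspanins were led by Cd81 at 671 TPM, Cd63 at 464 TPM and Cd151 at 429 TPM, but with its copy Cd63 came to 1078 TPM, above Cd81. Of 49 proteasome genes 48 were expressed, and Psmd8 led them at 851 TPM.

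All 17 genes in common use as references for quantitative PCR were expressed, over a span from Eef1a1 at 7378 TPM to Tfrc at 13.1 TPM. Gapdh stood at 1540, 1532 and 1520 TPM, B2m at 1495 TPM, Hprt at 91.5 TPM and Tbp at 14.7 TPM. Several of these references, Eef1a1, Ppia and Rpl13a among them, had copies elsewhere in the table that held part of the sum.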
